A study of Mus musculus with 12 samples.

Results

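The levels of 10 pericentral Wnt target genes (Glul, Oat, Slc1a2, Rhbg, Tbx3, Lgr5, Rnf43, Znrf3, Axin2 and Notum) were measured by RNA-seq in mouse liver during fibrosis and recovery. They were taken from a table of 21936 genes by their names, and not by their values. All 9 libraries came from male C57BL/6 mice (C57BL/6J in the study's methods), 6 weeks old on arrival, that had received carbon tetrachloride (CCl4, a hepatotoxin that leads to fibrosis) intraperitoneally at 1 mL/kg, 2 times a week for 8 weeks, and each group had 3 libraries. In the liver fibrosis group (LFG) the mice were sacrificed at that point. In the regression group (REG) 200 µL of phosphate-buffered saline was then injected into the tail vein 2 times a week for 4 weeks, and hADMSCs-Exo mice were given 250 µg of exosomes in 200 µL on the same schedule. These exosomes are vesicles released by cultured human adipose mesenchymal stem cells, so they are human material in a mouse host. All groups carry the CCl4 injury, and livers never given CCl4 were not analysed here. The labels do not say whether a library is 1 mouse, so p-values measure the spread between these libraries.

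In the liver lobule, endothelial cells of the central vein release the ligands Wnt2 and Wnt9b and the enhancer R-spondin 3, which stabilize beta-catenin in the hepatocytes next to the vein. With TCF/LEF factors, beta-catenin then turns on the pericentral program: genes for capturing ammonia and glutamate (Glul, Oat, Slc1a2, Rhbg), regulators such as Tbx3, and the pathway's own receptors and brakes (Lgr5, Rnf43, Znrf3, Axin2, Notum). Pericentral hepatocytes also hold Cyp2e1, the cytochrome that converts CCl4 into its toxic radical, and are the first hepatocytes to die from it.

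One LFG library stood apart from the rest of its group, and the differences from LFG are given below with and without it. Across genes, log2 expression of LFG 3 correlated by 0.880 and 0.907 with LFG 1 and LFG 2, and by 0.923 to 0.953 with the 6 REG and hADMSCs-Exo libraries. Its summed level of 10 stellate cell and myofibroblast markers, genes of the scar-forming cells, was 34.7 CPM (read counts relative to library size), against 1224 and 743.5 in LFG 1 and LFG 2, 131 to 227 in REG and 43.5 to 113.5 in hADMSCs-Exo. Hepatocyte markers were abundant in all libraries, 7 of them summing to 82069 CPM in LFG 1 and to 114369 to 166168 CPM in the other 8. Total counts ranged from 13837445 in LFG 3 to 19840917 in REG 3. LFG 3 also had the fewest genes detected, 13924, against 14539 to 15248 in the other libraries. CPM below are scaled by the trimmed mean of M values (TMM), whose factors ran from 0.808 in LFG 3 to 1.38 in LFG 1.

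The genes differed widely in abundance. Per unit of gene length, the median over the 9 libraries was 190 FPKM (counts scaled by gene length and by library total) for Glul and 182 for Oat. It was 15.8 FPKM for Slc1a2, 7.39 for Notum, 3.55 for Rnf43, 3.09 for Tbx3, 1.40 for Znrf3, 1.12 for Axin2, 0.604 for Lgr5 and 0.187 for Rhbg. By these medians the enzymes and the transporter Slc1a2 stood above the regulators, while the ammonium transporter Rhbg was close to undetected. In LFG 1 and LFG 2, however, Slc1a2 was at 0.0838 and 0.592 FPKM, below every regulator.

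Glul (chr1:153899944-153909723, plus strand of GRCm38) encodes glutamine synthetase, which joins ammonia to glutamate. Its level was 99.5, 167 and 1637 CPM in LFG 1, 2 and 3, then 610, 724 and 758 CPM in REG 1, 2 and 3, and 749, 1124 and 1326 CPM in hADMSCs-Exo 1, 2 and 3. LFG 1 and LFG 2 were the lowest of the 9 libraries and LFG 3 was the highest, so that the LFG group spanned both others. The ranges of REG and hADMSCs-Exo met only between 749 and 758 CPM. Outside LFG 3, the lowest REG or hADMSCs-Exo library was 3.66-fold above the higher of LFG 1 and LFG 2.

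Oat (chr7:132557478-132576398, minus strand) encodes ornithine aminotransferase, the mitochondrial enzyme that turns ornithine toward glutamate. It stood at 168, 110 and 1383 CPM in LFG, at 412, 461 and 452 CPM in REG and at 721, 904 and 1140 CPM in hADMSCs-Exo, in the order of replicates 1, 2 and 3. Every hADMSCs-Exo library was above every REG library. LFG 3 was again the highest library and was 9.94-fold above the mean of LFG 1 and LFG 2.

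Slc1a2 (chr2:102658659-102790784, plus strand) encodes the glutamate transporter GLT-1, found in the same perivenous hepatocytes as glutamine synthetase. It had the widest range of the 10 genes, with 0.800, 7.15 and 269 CPM in LFG 1, 2 and 3, which correspond to 19, 128 and 3009 reads. In REG it was 145, 160 and 219 CPM, and in hADMSCs-Exo 207, 346 and 362 CPM. LFG 1 and LFG 2 were far below all others, by at least 20.3-fold, LFG 3 lay within the range of hADMSCs-Exo, and the REG and hADMSCs-Exo ranges met only between 207 and 219 CPM.

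**Figure D1:**
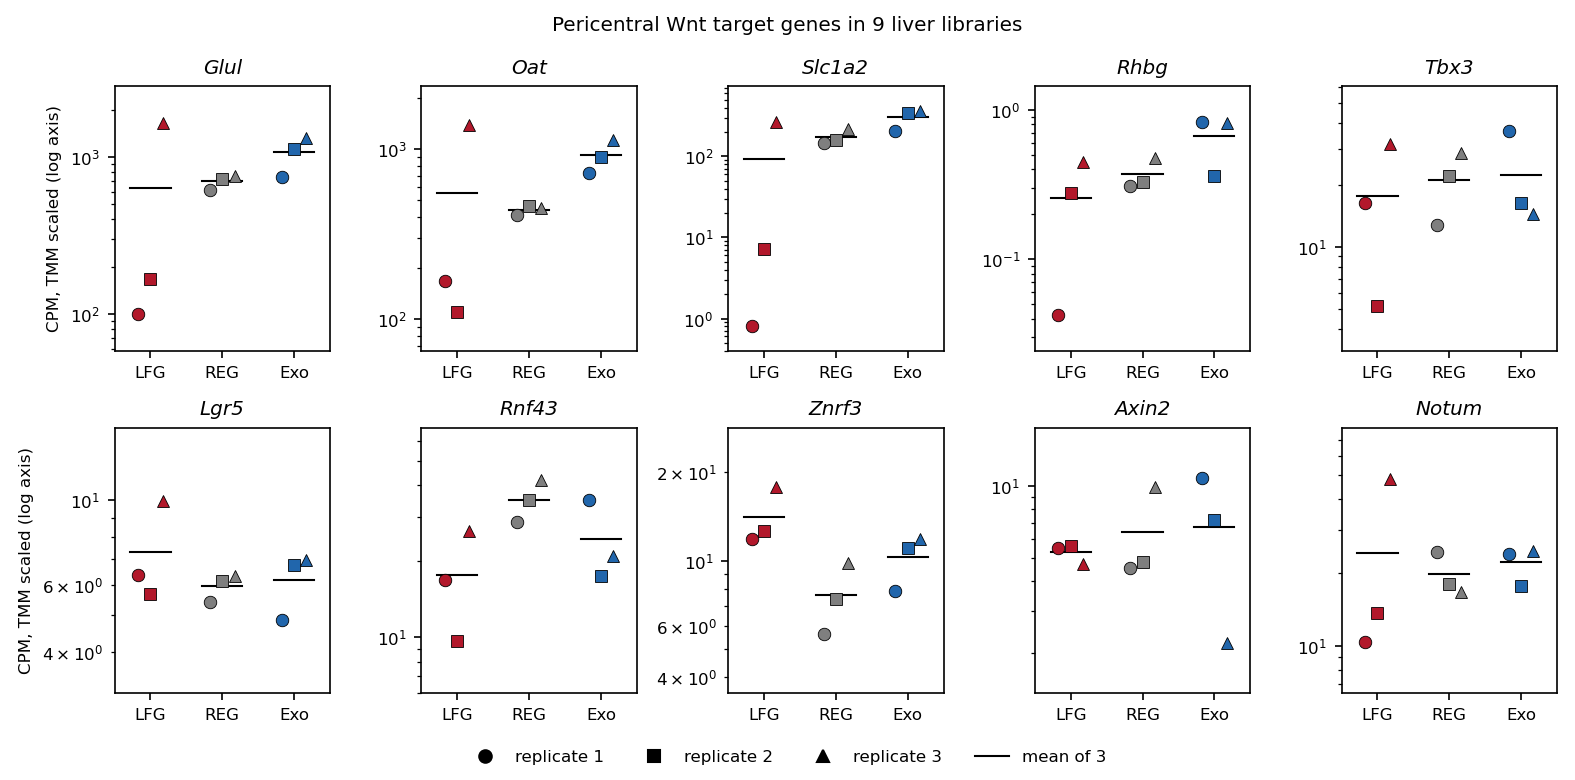
Level of each of the 10 genes in CPM scaled by TMM, on a log axis that differs between panels, by group (LFG, REG, and Exo for hADMSCs-Exo), with 1 marker shape for each replicate number and a line at the mean of 3. For Glul, Oat and Slc1a2, LFG 1 and LFG 2 lie below all other libraries while LFG 3 lies among or above them, and for Axin2 and Lgr5 the 3 groups overlap.

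The stretches just upstream of these 3 genes are printed because these were the genes past both thresholds described below in both comparisons with LFG once LFG 3 was left out, and Wnt targets are switched on through TCF/LEF factors. They are from RefSeq on GRCm38.p6, written 5′ to 3′ on the strand of the gene, with capitals marking any TCF/LEF core site (CTTTGAT, searched on both strands) and any CCAAT box (CCAAT, searched on both strands). The motifs do not overlap in these windows. The Glul window is chr1:153899679-153899928 on the plus strand, the Oat window chr7:132576399-132576648 on the minus strand, and the Slc1a2 window chr2:102706188-102706355 on the plus strand, where 29 bases annotated as untranslated exon and the short piece beyond them were left out. The annotated start used for Slc1a2 lies inside the longer gene model given by the table.
Glul: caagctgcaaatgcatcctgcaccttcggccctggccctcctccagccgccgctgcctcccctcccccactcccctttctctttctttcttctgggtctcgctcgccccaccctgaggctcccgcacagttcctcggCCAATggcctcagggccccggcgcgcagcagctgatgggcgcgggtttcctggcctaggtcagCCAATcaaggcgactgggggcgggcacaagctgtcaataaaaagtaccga
Oat: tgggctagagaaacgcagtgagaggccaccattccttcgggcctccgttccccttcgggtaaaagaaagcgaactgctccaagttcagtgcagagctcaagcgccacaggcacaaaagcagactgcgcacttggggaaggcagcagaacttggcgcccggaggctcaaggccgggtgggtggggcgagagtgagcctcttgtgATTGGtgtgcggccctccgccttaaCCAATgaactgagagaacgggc
Slc1a2: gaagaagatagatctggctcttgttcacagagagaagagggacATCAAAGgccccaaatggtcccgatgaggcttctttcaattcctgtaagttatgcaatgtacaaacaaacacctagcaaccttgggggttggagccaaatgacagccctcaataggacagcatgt
The TCF/LEF core was found once, in the Slc1a2 window, with its first base 207 bases upstream of the start (position -207), and in no other of the 6 windows of 250 bases that cover 5 of the 10 genes (Glul, Oat, Slc1a2, Axin2 and Rnf43). It occurs in 3.21% of all 32851 windows of that length. The CCAAT box stood 2 times in Glul, at -113 and -50, and 2 times in Oat, at -47 and -22, and 10.1% of all windows hold it at least 2 times. Such matches describe letters in a short window and not binding.

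The question behind hADMSCs-Exo against REG is what the exosomes added to 4 weeks of recovery. Oat, Slc1a2 and Glul were the 3 highest fold changes of the 9 genes tested, and none of them passed the test over all genes. In edgeR's quasi-likelihood test, Oat was 2.09-fold higher in hADMSCs-Exo (log2 fold change 1.06, SE 0.19, unadjusted p = 0.000472, Benjamini-Hochberg adjusted p = 0.358). For Slc1a2 the log2 fold change was 0.80 (SE 0.25) with an edgeR adjusted p of 0.407, and for Glul it was 0.61 (SE 0.22) with an edgeR adjusted p of 0.445. Of the 9 genes 0 passed both thresholds (an adjusted p below 0.05 together with a log2 fold change of 1 or more in either direction), where 0.00811% of all 12337 genes did. At an unadjusted p under 0.05, the 3 genes just named were higher and 0 were lower, against 10.0% of all genes in either direction and 5.34% higher. When all 9 libraries, LFG included, shared one edgeR fit, the fold changes of the 3 were nearly the same but 0 of 9 had an unadjusted p under 0.05, against 3.79% of all genes. Groups without overlap were found for 1 of 9, Oat, against 15.5% of all genes.

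The remaining 6 tested genes had smaller differences or larger errors between the 2 groups. The log2 fold change of hADMSCs-Exo against REG was -0.52 (SE 0.27) for Rnf43, 0.43 (SE 0.26) for Znrf3, 0.16 (SE 0.21) for Notum, 0.08 (SE 0.40) for Tbx3, 0.06 (SE 0.53) for Axin2 and 0.05 (SE 0.22) for Lgr5. None reached an unadjusted p of 0.05 in edgeR. The median of the 9 genes was 0.16, beside 0.008 over all genes tested, and it was 0.52 for the same 9 without REG 3. DESeq2 on the same counts placed Oat past both thresholds (adjusted p = 0.000238), as it did 0.544% of all genes, and limma with voom and quality weights placed 0 of the 9 there, as it did 0.0243% of all genes.

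The scale bears on this comparison, since hADMSCs-Exo and REG also differed in other cell markers. The summed stellate cell list was 131 to 227 CPM in REG and 43.5 to 113.5 CPM in hADMSCs-Exo. Of its 9 tested genes 6 (Acta2, Col1a1, Col1a2, Col3a1, Pdgfrb and Des) had an unadjusted p under 0.05. All 6 were lower in hADMSCs-Exo, beside 4.69% of all genes lower by that rule. DESeq2 placed Acta2, Col1a1 and Col3a1 past both thresholds, as it did 0.544% of all genes, and its results for the other stellate genes are not given here. The summed hepatocyte list was 159589 to 166168 CPM in REG and 114369 to 131768 CPM in hADMSCs-Exo, but its 7 genes did not move together, with a median log2 fold change of -0.05, and at an unadjusted p under 0.05 there were 0 lower and 1 higher, the liver factor Hnf4a (0.43, SE 0.15). Their part in the differences of Oat, Slc1a2 and Glul was not tested. In bulk liver, fewer pericentral hepatocytes and less RNA of a gene per hepatocyte cannot be told apart. Set against the summed hepatocyte markers of the same library, a sum that the most abundant markers dominate, Glul was 3.67, 4.49 and 4.75 CPM per 1000 CPM of markers in REG and 5.70, 8.53 and 11.6 in hADMSCs-Exo, and Slc1a2 was 0.875, 0.995 and 1.37 in REG and 1.58, 2.62 and 3.17 in hADMSCs-Exo. On that scale, chosen after the data had been seen, Glul, Oat and Slc1a2 were all without overlap and higher in hADMSCs-Exo, as were 38.6% of all genes tested.

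Against LFG, hADMSCs-Exo gave a picture that turned on LFG 3. With all 3 LFG libraries 0 of 9 genes passed both thresholds and 0 had an unadjusted p under 0.05, where 0% and 5.98% of 12489 genes did in edgeR. DESeq2 gave 0 of 9 by both rules, beside 0.512% and 8.48% of the genes to which it gave the p in question, and limma with voom and quality weights gave 0 past both thresholds, beside 0.00801% of all genes, and 6 with an unadjusted p under 0.05, beside 28.1%. The log2 fold changes of hADMSCs-Exo against LFG were 1.74 (SE 1.63) for Slc1a2, 0.76 (SE 0.99) for Glul and 0.74 (SE 0.91) for Oat, with edgeR adjusted p from 0.896 to 0.925. With the replicate number as a block these fold changes were 4.97, 1.87 and 1.66, and the edgeR adjusted p was 0.823 for each. No label pairs these libraries, and the block rests only on correlations of 0.107, 0.313 and 0.191 between same-numbered libraries in these same data. Without overlap between the groups there were 0 of 9 genes, against 12.3% of all genes.

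Without LFG 3 the same 3 genes passed both thresholds and no other member did. In edgeR's test, Slc1a2 was then 79.0-fold higher in hADMSCs-Exo (log2 fold change 6.30, SE 0.91, adjusted p = 0.0210). Glul was 8.10-fold higher (log2 fold change 3.02, SE 0.39, edgeR adjusted p = 0.0185) and Oat 6.68-fold higher (log2 fold change 2.74, SE 0.34, edgeR adjusted p = 0.0182). They are 3 of the 9 genes also tested with all libraries, all higher, where 5.97% of 12955 genes passed in either direction and 1.47% as higher. Notum and Rnf43 brought those with an unadjusted p under 0.05 to 5 of 9, against 28.5% of all genes, with log2 fold changes of 0.89 (SE 0.23) and 0.89 (SE 0.36), for an edgeR adjusted p of 0.0626 and 0.161. Rhbg passed the filter on low counts here through its reads in the exosome libraries, so the difference itself decided whether it was tested, and it is not counted. Tbx3, Axin2, Lgr5 and Znrf3 had log2 fold changes of 1.06 (SE 0.56), 0.28 (SE 0.55), 0.05 (SE 0.27) and -0.24 (SE 0.23). The median of the 9 was 0.89, beside 0.004 over all genes. With all libraries this median was 0.35, and without LFG 1 or without LFG 2 it was 0.30 and 0.18. Leaving out LFG 1 or LFG 2 instead gave 0 genes past both thresholds, with Slc1a2 at 1.148 and 1.189, Glul at 0.24 and 0.31 and Oat at 0.31 and 0.26.

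REG against LFG, which follows recovery with saline alone, turned on the same library. With all libraries 0 of 9 genes passed both thresholds in edgeR, as did 0% of 12517 genes. DESeq2 gave no p for Glul, Oat and Slc1a2 in this comparison, and 0 of the other 6 passed, beside 1.91% of the genes it tested. Limma with voom and quality weights, which counts libraries that stand apart for less, placed 5 of 9 there, all higher in REG (Glul, Oat, Slc1a2, Rnf43 and Tbx3), beside 10.3% of all genes. Rnf43 and Znrf3, which encode paired membrane ubiquitin ligases that remove Frizzled receptors from the cell surface, were the 2 members with an unadjusted p under 0.05 in edgeR, and with groups that did not overlap, and they went in opposite directions. Limma gave 6 of 9 an unadjusted p under 0.05, beside 42.0% of all genes. Rnf43 (chr11:87662722-87735539, plus strand) was 16.9, 9.67 and 26.3 CPM in LFG and 28.6, 34.9 and 41.9 CPM in REG, with every REG library higher (log2 fold change 1.01, SE 0.37, edgeR adjusted p = 0.404). Znrf3 (chr11:5276324-5444847, minus strand) was 11.8, 12.6 and 17.8 CPM in LFG and 5.60, 7.42 and 9.82 CPM in REG, with every REG library lower (log2 fold change -0.87, SE 0.30, edgeR adjusted p = 0.389). Among all genes, 11.3% had an unadjusted p under 0.05 in edgeR and 18.9% had groups without overlap, so that 2 of 9 members is near the background, and without REG 2 the members under 0.05 were 0. Glul, Oat and Slc1a2 had log2 fold changes of 0.14 (SE 0.98), -0.33 (SE 0.90) and 0.92 (SE 1.59).

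Without LFG 3, Slc1a2, Glul, Oat and Rnf43 were higher in REG and past both thresholds. Slc1a2 was 46.5-fold higher in REG than in LFG (log2 fold change 5.54, SE 0.82, edgeR adjusted p = 0.0151). For Glul the log2 fold change was 2.44 (SE 0.29, edgeR adjusted p = 0.0119), for Oat 1.71 (SE 0.25, edgeR adjusted p = 0.0145) and for Rnf43 1.44 (SE 0.28, edgeR adjusted p = 0.0221). That is 4 of 9 genes, where 10.7% of 12948 genes passed and 3.81% passed as higher. Znrf3 was -0.63 (SE 0.26) with an edgeR adjusted p of 0.123. At an unadjusted p under 0.05 there were 6 of 9, against 37.3% of all genes. The median of the 9 was 1.01, beside -0.005 over all genes. Leaving out LFG 1 or LFG 2 instead gave 0 genes past both thresholds and medians of -0.37 and -0.32, with Glul at -0.37 and -0.32 and Oat at -0.76 and -0.81, so the direction for Glul and Oat turned on which LFG library was left out. Slc1a2 was then at 0.34 and 0.38 and Rnf43 at 0.98 and 0.71, in the same direction as without LFG 3. REG and hADMSCs-Exo were set against the same LFG libraries, so the 2 results are not independent of each other.

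**Figure D2:**
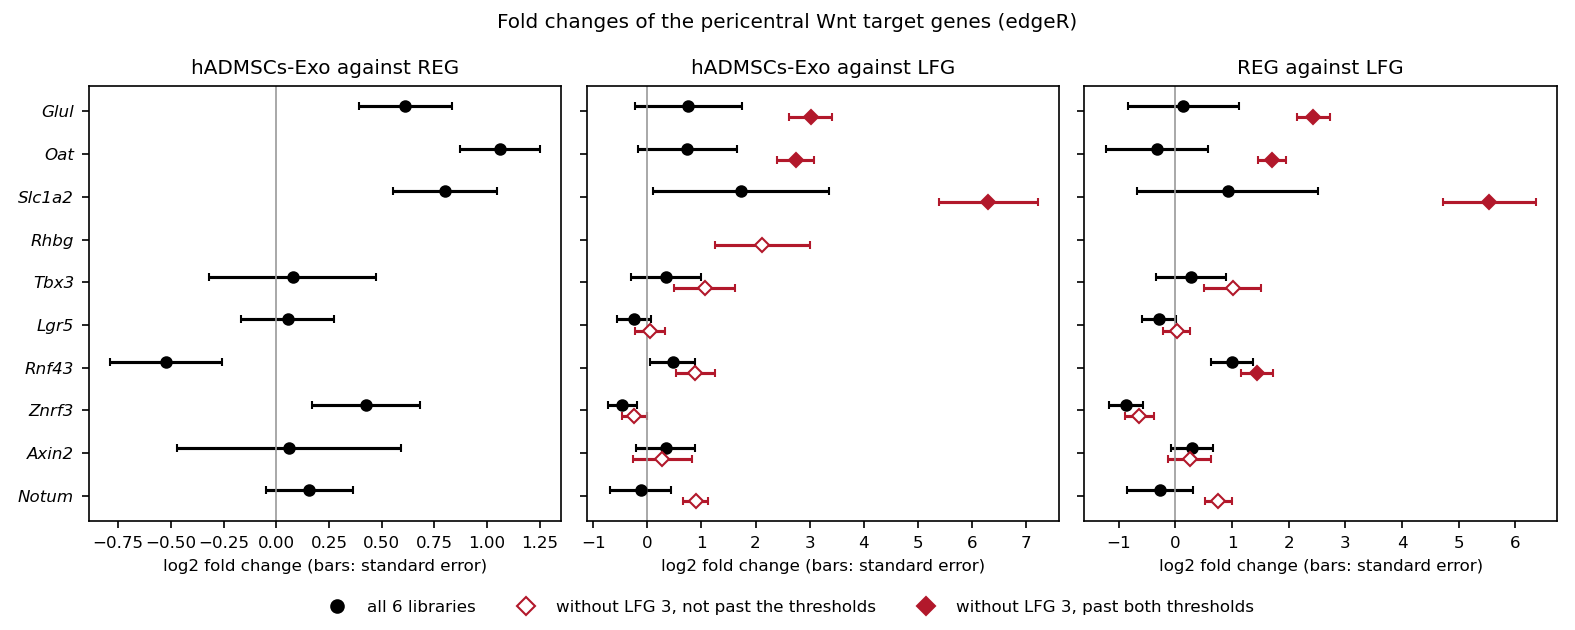
Log2 fold change of each gene in the 3 comparisons from edgeR, with bars of 1 standard error and an axis range of its own in each panel; black circles use all 6 libraries, red diamonds leave out LFG 3, and filled diamonds passed both thresholds. Leaving out LFG 3 moved Slc1a2 from 1.74 to 6.30 in hADMSCs-Exo against LFG and from 0.92 to 5.54 in REG against LFG, and in the former moved Lgr5 from -0.24 to 0.05 and Axin2 from 0.34 to 0.28.

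The state of the other cells moved with LFG 3 as well. Summed cell cycle markers were 221, 62.5 and 5.10 CPM in LFG 1, 2 and 3 and 10.4 to 17.4 CPM in the other 6 libraries, and macrophage markers were 1277, 972 and 130 CPM in LFG and 350 to 1205 CPM elsewhere. LFG 3 thus had the lowest sums of cell cycle, macrophage and stellate markers of the 9 libraries together with the highest Glul and Oat. Hepatocyte markers were lowest in LFG 1, and Glul per 1000 CPM of them was 1.21 and 1.25 CPM in LFG 1 and LFG 2 against 11.2 CPM in LFG 3. What set LFG 3 apart was not tested.

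**Figure D3:**
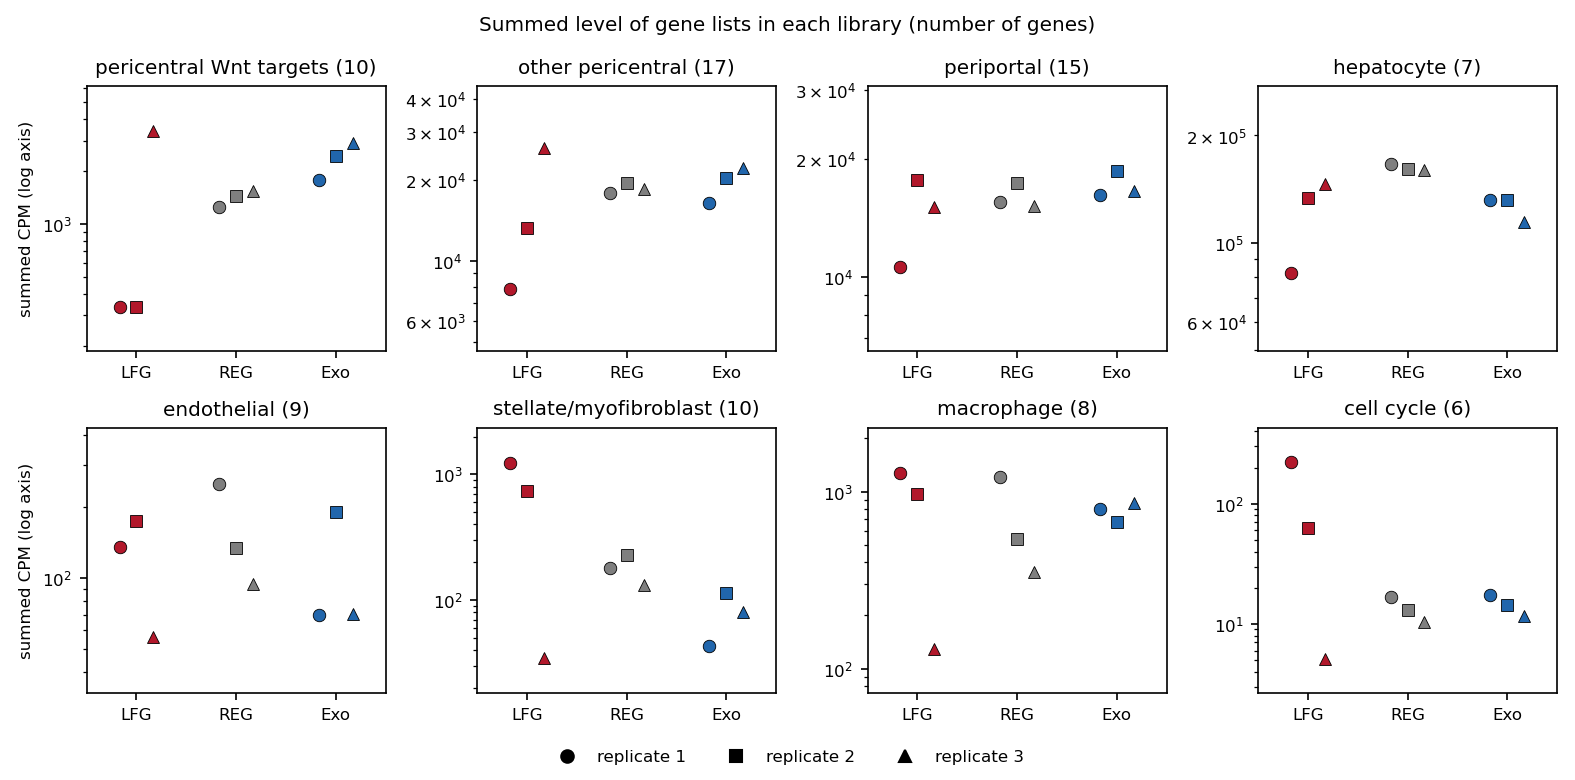
Summed CPM of 8 gene lists in each library, on a log axis that differs between panels, with 1 marker shape for each replicate number. LFG 3 has 34.7 CPM of stellate cell markers and 5.10 CPM of cell cycle markers, the lowest of the 9 libraries, beside 3427 CPM of pericentral Wnt targets, the highest.

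The regulators had patterns of their own over the libraries. Tbx3 (chr5:119670669-119684724, plus strand), a T-box factor of pericentral hepatocytes, was 16.4, 5.14 and 31.6 CPM in LFG, 12.8, 22.2 and 28.8 CPM in REG and 36.6, 16.3 and 14.5 CPM in hADMSCs-Exo. Its groups overlapped throughout, and the exosome libraries alone spanned 14.5 to 36.6 CPM.

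Lgr5 (chr10:115450311-115587780, minus strand), the R-spondin receptor that marks cells with strong Wnt input, varied least. It was 6.36, 5.70 and 9.92 CPM in LFG, 5.42, 6.15 and 6.32 CPM in REG and 4.86, 6.75 and 6.99 CPM in hADMSCs-Exo. LFG 3 was 1.65-fold above the mean of the other LFG libraries, and the other 8 libraries lay between 4.86 and 6.99 CPM.

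Axin2 (chr11:108920349-108950783, plus strand), a scaffold of the complex that destroys beta-catenin and a feedback target in most tissues, was 5.52, 5.64 and 4.74 CPM in LFG, 4.56, 4.83 and 9.93 CPM in REG and 10.8, 7.23 and 2.21 CPM in hADMSCs-Exo. It was the gene whose LFG 3 level was below the mean of LFG 1 and LFG 2, at 0.849 of it. Both the highest and the lowest of its 9 libraries were in hADMSCs-Exo.

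Notum (chr11:120653788-120661175, minus strand), a secreted enzyme that removes the lipid from Wnt ligands, was 10.4, 13.6 and 48.3 CPM in LFG, 24.3, 18.0 and 16.7 CPM in REG and 23.9, 17.7 and 24.5 CPM in hADMSCs-Exo. LFG 3 was 4.03-fold above the mean of LFG 1 and LFG 2, which were the lowest libraries. REG and hADMSCs-Exo overlapped. Rnf43 in hADMSCs-Exo was 35.0, 17.4 and 21.0 CPM and Znrf3 there was 7.88, 11.0 and 11.8 CPM, and both reached into the ranges of LFG and of REG.

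Rhbg (chr3:88242874-88254709, minus strand), the ammonium transporter of the basolateral membrane, had 1 to 14 reads per library and did not pass the filter on low counts in any comparison of all 6 libraries. Its level was 0.0421, 0.279 and 0.447 CPM in LFG, 0.308, 0.330 and 0.478 CPM in REG and 0.829, 0.362 and 0.819 CPM in hADMSCs-Exo. Of its exon bases 61.4% are shared with Gm38392 on the same strand, which had 0 reads in all 9 libraries, and how reads in shared exons were counted is not given in the sources used here, so the level of Rhbg is uncertain. Axin2, Tbx3, Slc1a2 and Notum overlap antisense genes at exons, Glul overlaps Teddm2, which had 1 to 17 reads, and whether strand was used in counting is not given either.

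In the rest of the pathway, no listed gene passed both thresholds in edgeR with all libraries, in any of the 3 comparisons. Of 23 Wnt ligands and R-spondins, 7 were tested in hADMSCs-Exo against REG and 1 had an unadjusted p under 0.05, the central vein ligand Wnt9b, beside 10.0% of all genes. Wnt9b was 5.39, 7.43 and 1.52 CPM in LFG, 3.51, 3.52 and 3.45 CPM in REG and 1.48, 2.65 and 1.76 CPM in hADMSCs-Exo, or 17 to 133 reads. All exosome libraries were below all REG libraries (log2 fold change -0.83, SE 0.30, edgeR adjusted p = 0.448), opposite in sign to Glul, Oat and Slc1a2. Against LFG, the log2 fold change of Wnt9b in hADMSCs-Exo was -1.30 (SE 0.61, edgeR adjusted p = 0.805) with all libraries and -1.69 (SE 0.35, edgeR adjusted p = 0.0381) without LFG 3, when it was the 1 of 6 ligands and R-spondins past both thresholds, beside 5.97% of all genes. In REG against LFG it was -0.45 (SE 0.54) with all libraries and -0.83 (SE 0.27) without LFG 3, with an edgeR adjusted p of 0.768 and 0.0701.

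Another ligand, Wnt5b, went the other way against LFG. It was 6.23, 12.3 and 6.17 CPM in LFG, 15.6, 14.6 and 12.3 CPM in REG and 16.4, 12.96 and 20.1 CPM in hADMSCs-Exo, so that every exosome library was above every LFG library. With all libraries it was the 1 ligand with an unadjusted p under 0.05 in each comparison with LFG, at a log2 fold change of 0.98 (SE 0.35, edgeR adjusted p = 0.805) in hADMSCs-Exo and 0.79 (SE 0.33, edgeR adjusted p = 0.433) in REG, beside 5.98% and 11.3% of all genes. Without LFG 3 it was 0.85 (SE 0.33) and 0.66 (SE 0.30), with an edgeR adjusted p of 0.1501 and 0.1524.

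Wnt2 was 3.92, 5.25 and 0.715 CPM in LFG, 6.28, 2.25 and 1.43 CPM in REG and 0.948, 3.62 and 1.58 CPM in hADMSCs-Exo, and Rspo3 was 5.64, 5.53 and 2.86 CPM in LFG, 5.79, 5.82 and 3.72 CPM in REG and 1.95, 5.36 and 2.90 CPM in hADMSCs-Exo. LFG 3 had the lowest Wnt2 of the 9 libraries beside the highest Glul. The 9 endothelial markers summed to 136, 174 and 56.1 CPM in LFG, 93.9 to 249 CPM in REG and 69.7 to 190 CPM in hADMSCs-Exo. They are not limited to the cells of the central vein, which make these ligands, and their part in the ligand levels was not tested.

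Among receptors, transducers and brakes a few genes had an unadjusted p under 0.05, where 10.0% of all genes had one in hADMSCs-Exo against REG, 5.98% in hADMSCs-Exo against LFG and 11.3% in REG against LFG. Of 11 tested receptors there were 0 in hADMSCs-Exo against REG, 1 higher in hADMSCs-Exo against LFG (Fzd4, log2 fold change 0.54) and 2 higher in REG against LFG (Fzd4, 0.83, and Fzd6, 1.11). Without LFG 3 the same 11 gave 2 higher and 2 lower in hADMSCs-Exo against LFG and 2 higher and 1 lower in REG against LFG, beside 28.5% and 37.3% of all genes, and Fzd4 was at 0.54 and 0.84 and Fzd6 in REG at 0.89. Fzd8, a Frizzled receptor, was then the receptor past both thresholds in REG (log2 fold change 1.12, SE 0.29, edgeR adjusted p = 0.0416), so that 1 of 11 stood beside 10.7% of all genes.

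Of 4 tested extracellular inhibitors, 3 were lower in hADMSCs-Exo than in REG at an unadjusted p under 0.05, namely Sfrp1 (log2 fold change -2.23, SE 0.54), Frzb (-1.21, SE 0.50) and Dkk3 (-0.98, SE 0.42), where 4.69% of all genes were lower by that rule. DESeq2 placed Sfrp1 past both thresholds there (-2.25, adjusted p = 0.0196), as it did Oat. These differences moved beside the stellate cell markers, whose part in them was not tested. Against LFG with all libraries there was 1 in hADMSCs-Exo, Sfrp1 (-2.37, SE 1.00), and 0 in REG, and with the replicate number as a block there were 0 in hADMSCs-Exo. Without LFG 3, Sfrp1 (-2.84, SE 0.62, edgeR adjusted p = 0.0412) and Dkk3 (-2.43, SE 0.43, edgeR adjusted p = 0.0271) passed both thresholds in hADMSCs-Exo against LFG, and Dkk3 did in REG against LFG (-1.42, SE 0.33, edgeR adjusted p = 0.0323), beside 5.97% and 10.7% of all genes.

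Of 19 tested genes of the beta-catenin machinery, 3 were higher and 0 lower in hADMSCs-Exo than in REG at an unadjusted p under 0.05 (Dvl3, Tle2 and Pygo2), beside 5.34% of all genes higher and 10.0% in either direction. In hADMSCs-Exo against LFG 1 was lower (Tle1, -0.59, SE 0.21), and 0 with the replicate number as a block. In REG against LFG 1 was higher and 4 were lower, including Dvl3 (-0.99, SE 0.25), Gsk3b (-0.72, SE 0.16) and Tle1 (-0.66, SE 0.21). Without LFG 3 these counts were 2 higher and 1 lower, and 2 higher and 5 lower, beside 28.5% and 37.3% of all genes. Dvl3, Gsk3b and Tle1 in REG were then at -0.76 (SE 0.21), -0.69 (SE 0.16) and -0.48 (SE 0.17). Beta-catenin itself (Ctnnb1) had a log2 fold change of -0.02 (SE 0.15), its partner Tcf7l2 0.04 (SE 0.15) and the R-spondin receptor Lgr4 0.21 (SE 0.15) in hADMSCs-Exo against REG. Against LFG, Ctnnb1 was at -0.17 (SE 0.39) in hADMSCs-Exo and -0.13 (SE 0.37) in REG with all libraries, and at -0.48 (SE 0.19) and -0.43 (SE 0.18) without LFG 3, opposite in sign to Glul, Oat and Slc1a2 there, with an edgeR adjusted p of 0.147 and 0.124.

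Of 7 other tested Wnt target genes, with all libraries, 0 had an unadjusted p under 0.05 in hADMSCs-Exo against REG and 0 against LFG, and 1 did in REG against LFG, Tnfrsf19 (0.71, SE 0.29), beside 10.0%, 5.98% and 11.3% of all genes. Without LFG 3, 4 of the same 7 did in hADMSCs-Exo against LFG and 5 in REG against LFG, beside 28.5% and 37.3% of all genes. In REG against LFG 4 then passed both thresholds, beside 10.7% of all genes, of which Sp5 (2.53, SE 0.48) and Tnfrsf19 (1.03, SE 0.22) were higher and Ccnd1 (-1.49, SE 0.38) and Cd44 (-1.22, SE 0.33) were lower. In hADMSCs-Exo against LFG 1 did, beside 5.97%, the cell cycle gene Ccnd1, which was lower (-1.84, SE 0.34). Sp5, Ccnd1, Cd44 and Fzd8, and Cdh1 below, were named after their values had been seen.

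**Figure D4:**
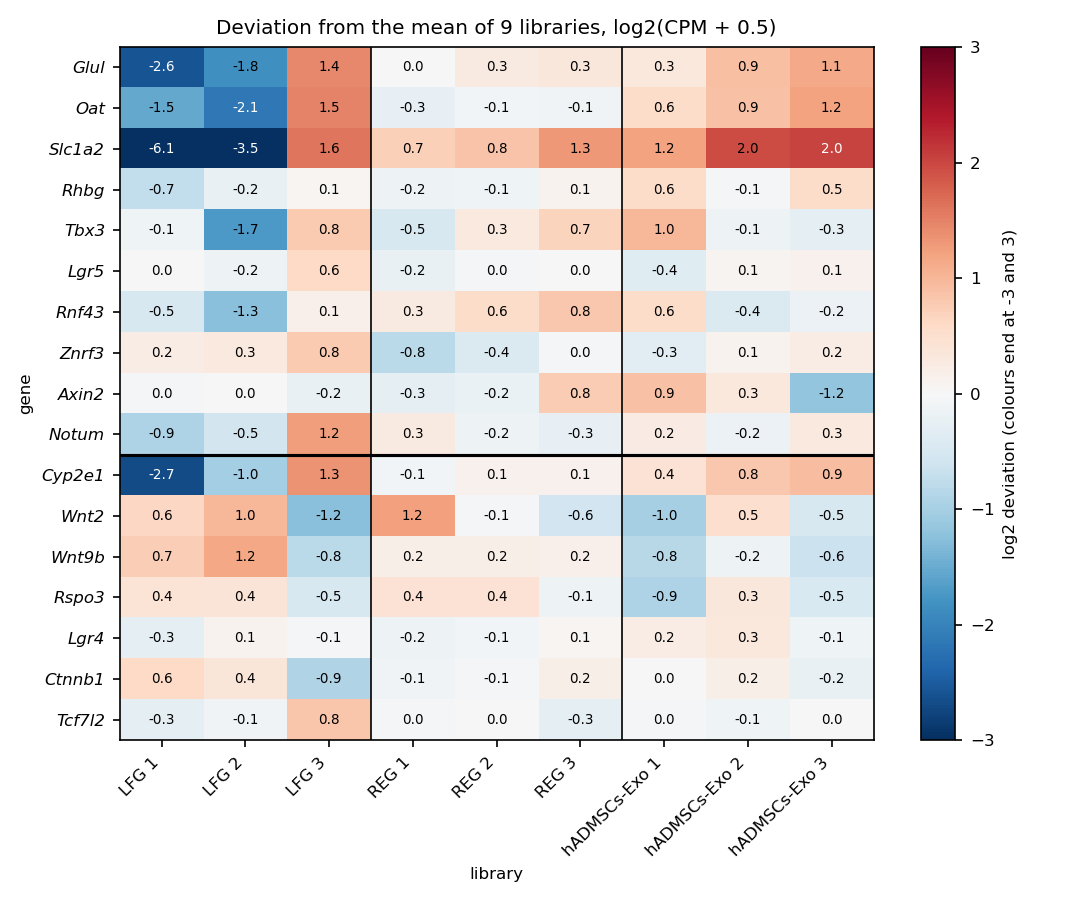
Log2(CPM + 0.5) less its mean over the 9 libraries for the 10 genes (above the line) and for Cyp2e1, 3 ligands, a receptor and beta-catenin with Tcf7l2 (below it), in red where higher and in blue where lower, with colours that end at -3 and 3. Glul, Oat, Slc1a2 and Cyp2e1 share a row pattern of low LFG 1 and LFG 2 with high LFG 3, and Wnt9b is low in LFG 3 and in hADMSCs-Exo.

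Pericentral genes outside the 10 divided as well. Of 17 such hepatocyte genes, 2 were higher and 1 lower in hADMSCs-Exo than in REG at an unadjusted p under 0.05, beside 10.0% of all genes, with a median log2 fold change of 0.007 over the list and 0.008 over all genes. Cyp2e1 was 737, 2343 and 11938 CPM in LFG, 4481 to 5206 CPM in REG and 6398 to 8931 CPM in hADMSCs-Exo, with every exosome library above every REG library (log2 fold change 0.67, SE 0.19, edgeR adjusted p = 0.407). Ahr, the aryl hydrocarbon receptor, was also higher (0.93, SE 0.17), and Cyp2c29, another pericentral cytochrome, was lower (-0.89, SE 0.26). Against LFG with all libraries, Cyp2e1 was at 0.66 (SE 0.91, edgeR adjusted p = 0.930) in hADMSCs-Exo and at -0.01 (SE 0.90, edgeR adjusted p = 0.997) in REG. Without LFG 3 it passed both thresholds, at 2.37 (SE 0.56, edgeR adjusted p = 0.0496) in hADMSCs-Exo and 1.73 (SE 0.49, edgeR adjusted p = 0.0489) in REG. Of 15 periportal genes, 1 was higher in hADMSCs-Exo than in REG at an unadjusted p under 0.05 (Etnppl, 0.67, SE 0.24), beside 10.0% of all genes. Differences from LFG without LFG 3 were not limited to pericentral genes: the periportal genes Hal, for histidine breakdown, and Gls2, a glutaminase, were past both thresholds and higher in hADMSCs-Exo (1.74, SE 0.34, and 1.305, SE 0.29) and in REG (2.03, SE 0.35, and 1.47, SE 0.33), and Cdh1 was past them and lower in REG (-1.40, SE 0.34). These were 2 and 3 of 15 periportal genes, where 2 and 3 of the 17 pericentral genes passed, beside 5.97% and 10.7% of all genes. With all libraries Hal was at 1.29 and 1.56 and Gls2 at 0.93 and 1.07, with 0 past both thresholds. At an unadjusted p under 0.05, 2 periportal genes were then higher and 1 lower in hADMSCs-Exo. In REG 3 were higher and 2 lower, beside 5.98% and 11.3% of all genes. The lower ones included G6pc in hADMSCs-Exo (-2.10, SE 0.76) and Pck1 in REG (-1.26, SE 0.44). Without LFG 3 the counts were 3 higher and 2 lower, and 6 higher and 3 lower, beside 28.5% and 37.3%. G6pc was then at -2.24 (SE 0.77) and Pck1 at -0.93 (SE 0.39). The median of the periportal list without LFG 3 was 0.54 in hADMSCs-Exo and 0.70 in REG, and that of the pericentral list 0.75 and 0.85. The pericentral list summed to 7859, 13212 and 26226 CPM in LFG 1, 2 and 3, and to 7122, 10868 and 14288 CPM without Cyp2e1, so that Cyp2e1 made up most of the excess of LFG 3 over LFG 2. The periportal list summed to 10618, 17641 and 15096 CPM there.

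By pattern, the gene nearest to Glul among 12178 tested genes outside the 10 was Cyp2e1. Likeness was the root mean square difference of centred log2 CPM over the 9 libraries, where 0 is the same pattern, and it was 0.309 for Cyp2e1, followed by Syt1 (0.443), Lrit2 (0.447), Cpsf4l (0.469) and Gpx6 (0.473). Of the other members, Oat was at 0.430, Notum at 0.878, Rnf43 at 1.08, Tbx3 at 1.08, Lgr5 at 1.19, Znrf3 at 1.35 and Axin2 at 1.49, and Slc1a2, which had the widest range, was the farthest at 1.62. Glul itself had an SD of 1.35 over the 9 libraries. Nearest to Axin2 were Ltb4r2 (0.311), Lrig2 (0.370), Npc1 (0.376), Zfp407 (0.381) and Armcx5 (0.389), against an SD of 0.66 for Axin2. Nearest to Lgr5, whose SD was 0.28, were Nol12 (0.102), Alkbh8 (0.105), Slc17a3 (0.105), Arpc5l (0.106) and Ppp2ca (0.114). These lists rest on 9 libraries that share their depth and scaling, and are given as a description.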

How the data were processed

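The authors deposited raw counts per gene for 9 liver libraries. They also deposited FPKM, which are those counts divided by gene length and by the library's total. The 3 hADMSCs samples of the 12 in the series were not analysed here. RNA was extracted with Trizol and libraries were made with an NEBNext Ultra kit. The submitters' processing notes name cutadapt 1.15, HISAT2 2.0.5, HTSeq 0.9.1, DESeq 1.30.0 and the build GRCm38, and the strand setting is not given in the sources used here. Columns of the deposited table headed MSC_E were read as the exosome group. FPKM was used to compare genes with each other.

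The tool for the tests on counts was edgeR 4.0.16 under R 4.3.3 (quasi-likelihood test, two-sided, TMM, filter on low counts, Benjamini-Hochberg adjustment over all genes tested) on the 6 libraries of each pair of groups. Standard errors were derived from the fold change and its F statistic, and log2 CPM used a prior count of 2. The test was tested on simulated data. Alternatives were RLE size factors, DESeq2 1.42.0, limma 3.58.1 with voom and quality weights, no filter, a minimum of 10 counts per library, a single fit of all 9 libraries, a replicate block, CPM on library totals, and each library left out in turn. A scale per 1000 CPM of hepatocyte markers was added after the data had been seen. Tables used pandas 2.3.3 and plots matplotlib 3.10.9.

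The 10 genes and the gene lists were chosen with earlier results of these data known, so no list was tested as a whole. Besides the 10, the genes named were Wnt2, Wnt9b, Rspo3, Lgr4, Ctnnb1, Tcf7l2 and Cyp2e1, up to 3 genes of each list with the smallest unadjusted p under 0.05 in a comparison, and the 5 genes nearest in pattern to Glul, Axin2 and Lgr5. The marker genes behind a summed level and the genes of the overlap check are named beyond that rule.

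Replicate numbers are shared by the groups. For same-numbered libraries 1, 2 and 3 of hADMSCs-Exo and LFG, the correlation across genes of their departures from the group mean was 0.107, 0.313 and 0.191, all over 0.1, which is the only ground for treating them as pairs. For hADMSCs-Exo and REG the values were 0.143, -0.00731 and 0.0273, and for REG and LFG 0.423, -0.207 and 0.315. No 2 replicates agreed within sampling noise (lowest chi-square per gene 27.0).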

Additional observations from a re-analysis of the deposited data

How the results depend on the processing

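In hADMSCs-Exo against REG, 1 gene passed both thresholds, and DESeq2 gave 67, limma with voom 3, no filter on low counts 4, all 9 libraries in one fit 0, and leaving out a library 0 to 1. The members past the thresholds were 1 in DESeq2, those with an unadjusted p under 0.05 were 0 with all 9 libraries in one fit, and the members' median was 0.0988 to 0.52 with a library left out. In hADMSCs-Exo against LFG, DESeq2 gave 60 genes, limma with voom 1 and all 9 libraries in one fit 1, and leaving out a library gave 0 to 773. Members past the thresholds were 0 to 3 and those under an unadjusted p of 0.05 were 0 to 5 with a library left out, and 6 with limma. In REG against LFG, DESeq2 gave 239 genes, limma with voom 1285, and leaving out a library 0 to 1391. Members past the thresholds were 5 with limma and 0 to 4 with a library left out, those under an unadjusted p of 0.05 were 6 and 0 to 6, and the median was 1.53 and -0.37 to 1.01. The highest counts with a library left out, 773, 1391, 3, 4, 5 and 6, were those without LFG 3. Members are counted among the 9 tested with all libraries. Of 30 pairs of gene and comparison, 3 had groups without overlap, 8 on library totals (adding Glul and Slc1a2 in hADMSCs-Exo against REG, Rhbg and Znrf3 against LFG, and Lgr5 in REG against LFG), and 5 per 1000 CPM of hepatocyte markers. Of all genes, in the order of comparisons above, 16.0%, 9.79% and 17.1% had such groups on totals and 39.6%, 7.14% and 26.6% per hepatocyte markers. The cause of these changes was not tested.

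For single genes, 1133 alternative values kept their direction and their side of the thresholds, 46 newly passed both and 59 changed sign, none of these for a gene past the thresholds in edgeR with all libraries. DESeq2 gave no p for Glul, Oat and Slc1a2 in REG against LFG, and these are left out. In limma with voom those that changed sign were Axin2 (-0.21) and Tbx3 (-0.14) in hADMSCs-Exo against REG, Lgr5 (0.0619), Axin2 (-0.22), Notum (0.72) and Tcf7l2 (0.0538) against LFG, and Oat (1.73), Lgr5 (0.0313), Notum (0.52), Wnt2 (-0.87), Rspo3 (-0.0552), Lgr4 (-0.0654), Tcf7l2 (0.0619) and Cyp2e1 (1.35) in REG against LFG. For Cyp2e1 in REG against LFG the value was 0.00365 with RLE, 0.00364 in DESeq2, 0.0467 with no filter and 0.0230 with at least 10 counts, and for Wnt2 it was -0.00939 with all 9 libraries in one fit. Leaving out a library in hADMSCs-Exo against REG gave -0.0426 to 0.20 for Lgr5, -0.45 to 0.52 for Axin2, -0.47 to 0.36 for Tbx3, -1.397 to 0.16 for Wnt2, -0.13 to 0.0739 for Ctnnb1 and -0.0456 to 0.10 for Tcf7l2. In hADMSCs-Exo against LFG it gave -0.39 to 0.0511 for Lgr5, -0.16 to 0.77 for Axin2, -0.19 to 1.06 for Tbx3, -0.49 to 0.89 for Notum, -0.48 to 0.12 for Ctnnb1 and -0.496 to 0.14 for Tcf7l2. In REG against LFG it gave -0.37 to 2.44 for Glul, -0.81 to 1.71 for Oat, -0.44 to 0.0276 for Lgr5, -0.13 to 0.52 for Axin2, -0.17 to 1.01 for Tbx3, -0.64 to 0.76 for Notum, -0.80 to 0.51 for Wnt2, -0.83 to 0.00852 for Wnt9b, -0.0852 to 0.35 for Rspo3, -0.0693 to 0.11 for Lgr4, -0.43 to 0.16 for Ctnnb1, -0.53 to 0.13 for Tcf7l2 and -0.52 to 1.73 for Cyp2e1.

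With the replicate block, the genes past both thresholds were 1, 0 and 0 in hADMSCs-Exo against REG, hADMSCs-Exo against LFG and REG against LFG, as without it, and the members past them were 0 in each. In hADMSCs-Exo against REG, where the numbers were not shown to pair the libraries, 2 of 6 libraries correlated best with their own number and Axin2 turned to -0.0231. In REG against LFG 4 of 6 did, and Oat (0.69), Notum (0.0668) and Cyp2e1 (0.90) changed sign. There Slc1a2 moved from 0.92 to 4.09 and Glul from 0.14 to 1.34, with an edgeR adjusted p of 0.589 and 0.655 under the block. In hADMSCs-Exo against LFG Notum turned to 0.19. Under the block no gene named in the report came to pass or to miss both thresholds, but some no longer had an unadjusted p under 0.05 in edgeR. In hADMSCs-Exo against LFG these were Sfrp1 (0.186), Tle1 (0.0587), Acta2 (0.155), Col1a1 (0.179) and Col3a1 (0.151), and also Col1a2 and Des. They were Pygo2 (0.0526) in hADMSCs-Exo against REG, and Tnfrsf19 (0.0557) and Pck1 (0.0676) in REG against LFG.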
